A study of Mus musculus with 11 samples.

Results

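*Il21*, *Cxcr5*, *Pdcd1*, *Icos*, *Cd40lg*, *Cd40* and *Sh2d1a*, genes of the follicular helper T cell and germinal centre response, were followed in whole lacrimal glands of male NOD mice. They were chosen by name, as 7 of the 19058 genes in the deposited table of estimated counts. All 7 had enough counts in WT glands to be tested. In male mice of the NOD strain the lacrimal gland becomes inflamed on its own. The study asked which transcripts of the inflamed gland need the RNA sensor TLR7 or the type I interferon receptor. The 3 WT mice carried the wild-type alleles on the NOD strain. The 5 *Tlr7* KO mice carried a 2 base-pair deletion in *Tlr7*, made by CRISPR/Cas9 editing of NOD embryos and descending from 1 edited allele. The 3 *Ifnar1* KO mice were NOD mice homozygous for the em16 allele of *Ifnar1*, which encodes a chain of the type I interferon receptor. Both alleles are germline, so that every cell of the animal carries them. WT and *Tlr7* KO mice were 20 to 22 weeks old, and no age is given for the *Ifnar1* KO mice in the sources used here. No mouse was treated. Each mouse gave 1 library, and the sources used here do not say whether litters were shared. The study left out 1 further *Ifnar1* KO mouse because its gland resembled WT in overall expression and in inflammation, so the level and spread of the *Ifnar1* KO group are those of the mice kept.

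Follicular helper T cells are CD4 T cells that enter B cell follicles and help B cells to form germinal centres, the sites of antibody affinity maturation. They are drawn to follicles by the receptor CXCR5, secrete interleukin-21, carry the inhibitory receptor PD-1 and the costimulatory receptor ICOS, and use CD40 ligand to engage CD40 on B cells. Chronically inflamed glands of NOD mice and of patients with Sjögren disease can hold lymphocyte aggregates of T and B cells that resemble follicles. None of the 7 genes is exclusive to these cells. Activated T cells of other kinds transcribe *Pdcd1*, *Icos*, *Cd40lg* and *Sh2d1a*, B cells transcribe *Cxcr5*, and B cells, dendritic cells and macrophages transcribe *Cd40*. For *Il21*, the study cites a CD4 T cell population of NOD lacrimal glands that makes interleukin-21 but lacks CXCR5 and BCL6. Those cells had high PD-1, ICOS and CD73. In whole tissue, fewer cells of a type and less RNA of a gene per cell cannot be told apart.

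The libraries had 20512315 to 28814250 counts assigned to genes, and levels are given in CPM, counts scaled to a common library total after TMM normalisation. A gene with 3 counts stood at 0.082 to 0.158 CPM, depending on the mouse. This floor covers counting error only. Group values are means ± SD over 3 WT, 5 *Tlr7* KO and 3 *Ifnar1* KO mice. As a check of the labels, the *Tlr7* transcript averaged 2.39 ± 0.763 CPM in WT glands, 0.778 ± 0.176 in those of *Tlr7* KO mice and 0.562 ± 0.289 in those of *Ifnar1* KO mice. For *Ifnar1* the levels were 13.5 ± 2.63, 9.56 ± 1.08 and 9.02 ± 0.648 CPM. Both transcripts were lower than WT in both knockouts (adjusted p from 0.00343 to 0.046, edgeR), and neither passed the test between the knockouts (adjusted p = 0.593 and 0.725), so that they do not separate the 2 knockout labels. Gene counts do not show whether a small deletion is present. In addition, 3 libraries held skeletal muscle transcripts. The 5 muscle markers summed to 351, 253 and 248 CPM in WT 1, WT 2 and *Tlr7* KO 4, against at most 9.87 CPM in the other mice. WT 2 also stood apart in its lymphocyte transcripts. Its 10 T cell markers summed to 28.8 CPM against 92.1 in WT 1 and 70.9 in WT 3, and it had the lowest WT value of all 7 genes, as WT 1 had the highest.

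**Figure D1:**
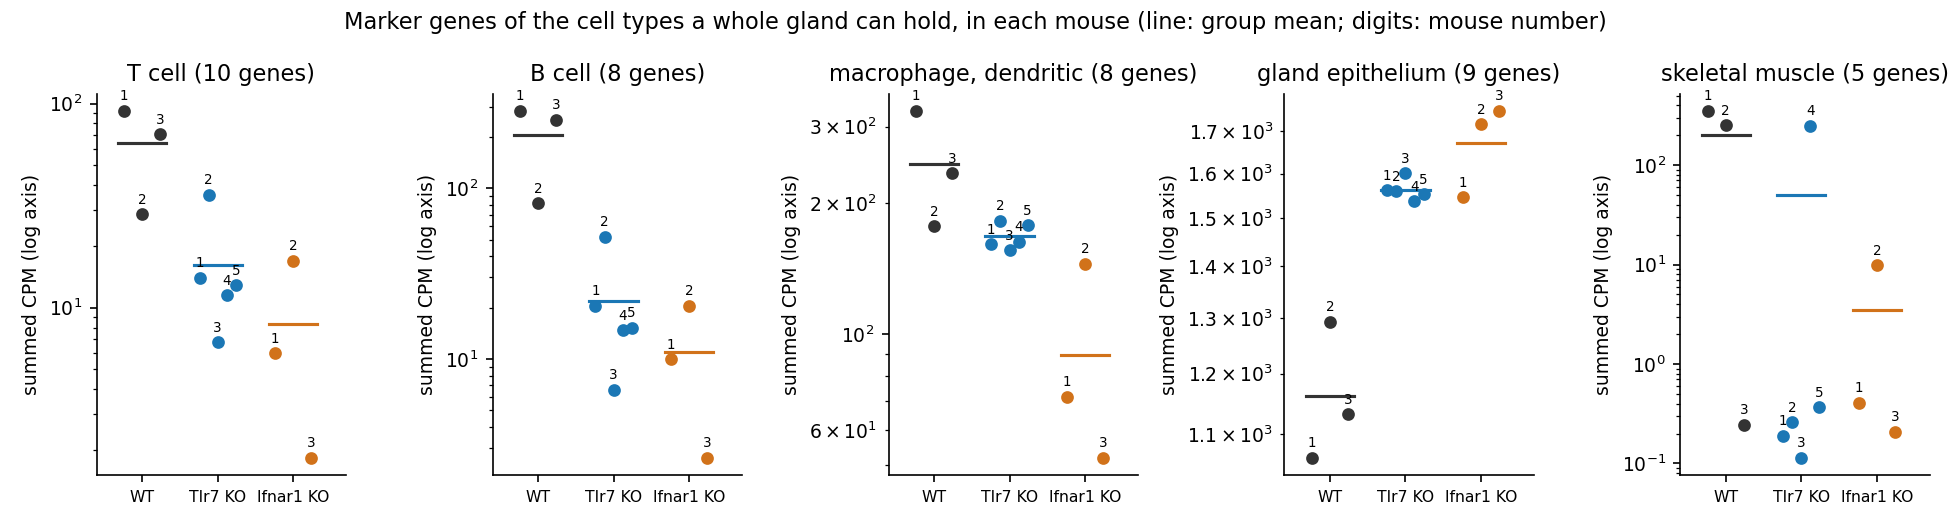
Summed CPM (vertical log axis) of marker genes for T cells, B cells, macrophages and dendritic cells, gland epithelium and skeletal muscle in each mouse, by genotype; each point is a mouse with its number, and each line is a group mean. T cell markers lie between 28.8 and 92.1 CPM in WT mice, between 6.76 and 35.8 CPM in *Tlr7* KO mice and between 1.84 and 17 CPM in *Ifnar1* KO mice, and muscle markers reach 248 to 351 CPM in 3 mice only.

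The 7 genes lie at separate places in the mouse genome (GENCODE M21 on GRCm38). *Il21* (ENSMUSG00000027718) is at chr3:37222759-37232636 on the minus strand, *Cxcr5* (ENSMUSG00000047880) at chr9:44511787-44561877 on the minus strand, and *Pdcd1* (ENSMUSG00000026285) at chr1:94038305-94052553 on the minus strand. *Icos* (ENSMUSG00000026009) is at chr1:60977927-61000320 on the plus strand and *Cd40* (ENSMUSG00000017652) at chr2:165055627-165072948 on the plus strand. *Cd40lg* (ENSMUSG00000031132, chrX:57212143-57224042, plus strand) and *Sh2d1a* (ENSMUSG00000005696, chrX:42502453-42529330, plus strand) are on the X chromosome, as is *Tlr7* (chrX:167304929-167330558, minus strand).

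Because the members fell together, the sequence before the start of transcription is shown for *Il21* and *Pdcd1*, the 2 of 7 members matched in the RefSeq promoter table (GRCm38.p6). Each line gives the 250 bases before the start, 5′ to 3′ on the strand of the gene. Capitals mark GGAAA or its reverse complement TTTCC, the core of sites bound by NFAT, a family of factors activated by T cell receptor signalling.
*Il21*, chr3:37232637-37232886, minus strand: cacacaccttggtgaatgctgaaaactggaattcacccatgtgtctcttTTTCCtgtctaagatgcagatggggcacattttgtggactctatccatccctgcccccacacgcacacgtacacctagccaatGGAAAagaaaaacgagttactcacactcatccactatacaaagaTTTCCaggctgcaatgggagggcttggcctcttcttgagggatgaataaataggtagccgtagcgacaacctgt
*Pdcd1*, chr1:94052554-94052803, minus strand: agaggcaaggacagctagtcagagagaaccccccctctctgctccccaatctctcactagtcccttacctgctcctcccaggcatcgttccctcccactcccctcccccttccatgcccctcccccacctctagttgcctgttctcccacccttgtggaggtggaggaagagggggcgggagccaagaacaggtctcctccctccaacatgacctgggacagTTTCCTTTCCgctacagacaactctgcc
These letters were found 3 times before *Il21* and 2 times before *Pdcd1*, and in 55.6% of all 32851 promoter windows of the same length. They were searched after 4 other motifs had given no match on either strand of both windows. Those were TGANTCA for AP-1 (6.75% of all windows), TTCNNNGAA for STAT factors (7.02%), the core of the interferon-stimulated response element (2.98%) and 1 form of the NF-kB site (1.21%). The adjacent pair before *Pdcd1* and the matches before *Il21* do not overlap any other motif searched. A match of letters is a description and not a bound site.

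Compared per length of exon sequence, the level of the 7 genes in WT glands covered a wide range. *Cxcr5* had 3.69 ± 1.73 CPM per kb (the length that unique exon sequence covers) and *Pdcd1* had 3.14 ± 1.47. *Cd40* followed at 1.54 ± 0.692, *Icos* at 0.604 ± 0.247 and *Cd40lg* at 0.408 ± 0.251. *Il21* (0.192 ± 0.141 CPM per kb) and *Sh2d1a* (0.153 ± 0.062) were lowest. The order from *Cxcr5* to *Cd40lg* was the same in each of the 3 WT mice, whereas *Il21* and *Sh2d1a* changed places between mice and did not differ beyond their spread. In the knockouts the order of the means at the top was another one. *Cxcr5*, first in WT, had 0.301 ± 0.319 CPM per kb in *Tlr7* KO and 0.161 ± 0.164 in *Ifnar1* KO, below the means of *Cd40* (0.487 ± 0.266 and 0.207 ± 0.191) and of *Pdcd1* (0.370 ± 0.218 and 0.293 ± 0.257). The spreads of these 3 genes overlap within each knockout, and in *Tlr7* KO 2 *Cxcr5* was still first, at 0.848 CPM per kb.

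*Tlr7* KO glands had less of all 7 transcripts than WT glands (edgeR's quasi-likelihood test, adjusted p under 0.05). The median log2 fold change, KO relative to WT, was -2.85, also with *Il21* set at the fold that 3 counts allow, against -0.04 over all genes. Over the 13937 genes tested, 17.1% were called lower in *Tlr7* KO and 32.5% were called in either direction. Relative to WT, 6 of the 7 passed the test as lower in *Ifnar1* KO mice, with a median of -3.43 against -0.02 over all genes, where 12.1% of genes were called lower and 19% in either direction. Every knockout mouse lay below every WT mouse for 4 of the 7 in *Tlr7* KO (14.2% of all genes) and for 7 of the 7 in *Ifnar1* KO (21.1% of all genes), *Cd40lg* among them only by scaling, from 4 counts on either side. Both comparisons use the same 3 WT mice. The mean CPM of all 7 genes had the order WT, *Tlr7* KO, *Ifnar1* KO, but without *Tlr7* KO 2 the fitted difference between the knockouts changed sign for *Cxcr5*, *Pdcd1*, *Icos* and *Cd40lg*, to between -0.53 and -0.01 (log2).

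**Figure D2:**
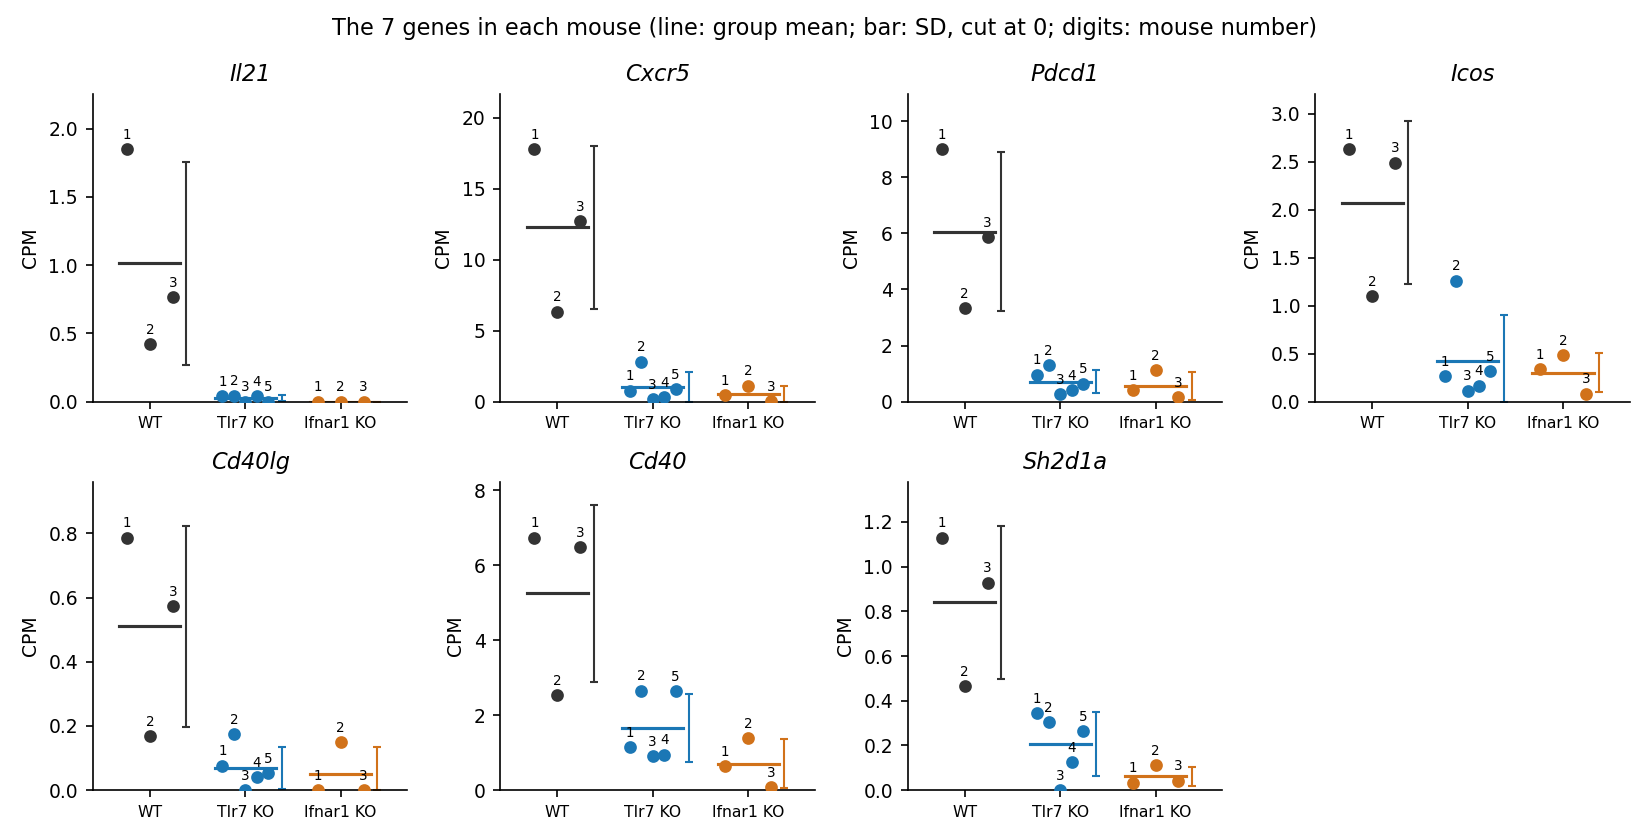
CPM of the 7 genes in each mouse, by genotype; each point is a mouse with its number, lines are group means and bars the SD. The WT points are the highest in each panel, with WT 2 lowest among them, except that *Tlr7* KO 2 reaches above WT 2 for *Icos*, *Cd40lg* and *Cd40* and *Tlr7* KO 5 for *Cd40*.

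*Il21* encodes the cytokine by which follicular helper T cells promote B cell growth and plasma cell formation. It had 54 counts in WT 1 (1.85 CPM), 10 in WT 2 (0.422 CPM) and 28 in WT 3 (0.765 CPM). In *Tlr7* KO mice 3 libraries had 1 count and 2 had 0, and all 3 *Ifnar1* KO libraries had 0, and a count of 0 allows up to between 0.102 and 0.158 CPM in those mice. The transcript was thus found in every WT gland and was at or near 0 in every knockout gland, with no overlap. With 92 counts in WT and 3 in *Tlr7* KO, the ratio of WT to *Tlr7* KO was 40.6 (95% exact binomial interval 13.5 to 201, counting error only; adjusted p = 0.00163, edgeR). Relative to *Ifnar1* KO, WT was at least 27.4-fold higher, taking 3 counts over the KO group (adjusted p = 0.0254, edgeR). WT 1 held 54 of the 92 WT counts, and without it the ratio was 24.9 and the bound 16.8. In the second deposited count table, made from reads aligned to the genome, *Il21* had 38, 5 and 16 counts in WT mice and at most 1 in any knockout mouse.

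*Cxcr5* encodes the chemokine receptor that guides follicular helper T cells, and also B cells, to follicles. It was measured at 17.8, 6.33 and 12.7 CPM in WT 1, 2 and 3. In *Tlr7* KO mice 1 to 5 it had 0.765, 2.83, 0.19, 0.33 and 0.898 CPM, and in *Ifnar1* KO mice 1 to 3 it had 0.443, 1.12 and 0.0419 CPM. All 8 knockout values lay below the lowest WT value, and *Tlr7* KO 2 stood above the other knockout mice. The log2 fold change was -3.64 (SE 0.70, adjusted p = 0.00824, edgeR) in *Tlr7* KO and -4.52 (SE 0.76, adjusted p = 0.0238) in *Ifnar1* KO.

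*Pdcd1* encodes PD-1, an inhibitory receptor that is abundant on follicular helper T cells and also found on other activated T cells. It had 9, 3.33 and 5.85 CPM in WT 1, 2 and 3. The *Tlr7* KO mice had 0.957, 1.3, 0.266, 0.412 and 0.634 CPM and the *Ifnar1* KO mice 0.409, 1.12 and 0.168 CPM. No knockout mouse reached the range of WT. The log2 fold change was -3.09 (SE 0.46, adjusted p = 0.0026, edgeR) in *Tlr7* KO and -3.43 (SE 0.65, adjusted p = 0.0254) in *Ifnar1* KO.

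*Icos* encodes a costimulatory receptor needed for follicular helper T cells to form and persist. It had 2.63, 1.1 and 2.49 CPM in the WT mice. In *Tlr7* KO mice it had 0.268, 1.26, 0.114, 0.165 and 0.317 CPM, and in *Ifnar1* KO mice 0.34, 0.486 and 0.0838 CPM. *Tlr7* KO 2 lay above WT 2, so that these groups overlap, and the *Ifnar1* KO mice all lay below WT. The log2 fold change was -2.30 (SE 0.66, adjusted p = 0.0267, edgeR) in *Tlr7* KO and -2.77 (SE 0.58, adjusted p = 0.027) in *Ifnar1* KO.

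*Cd40lg* encodes CD40 ligand, the signal that helper T cells give to B cells. It was scarce, with 23, 4 and 21 counts in the WT mice (0.787, 0.169 and 0.574 CPM), 2, 4, 0, 1 and 1 counts in the *Tlr7* KO mice and 0, 4 and 0 in the *Ifnar1* KO mice. WT 2, *Tlr7* KO 2 and *Ifnar1* KO 2 each had 4 counts, at 0.169, 0.174 and 0.149 CPM, so that these mice are indistinguishable at this depth. The log2 fold change in *Tlr7* KO was -2.85 (SE 0.75, adjusted p = 0.0158, edgeR). In *Ifnar1* KO it was -3.29 (SE 1.12, adjusted p = 0.0687), which does not pass the threshold.

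*Cd40* encodes the receptor for this ligand and is the member found on B cells, dendritic cells and macrophages rather than on T cells. It had 6.74, 2.53 and 6.48 CPM in the WT mice. In *Tlr7* KO mice it had 1.15, 2.65, 0.912, 0.947 and 2.64 CPM, and in *Ifnar1* KO mice 0.647, 1.38 and 0.0838 CPM. *Tlr7* KO 2 and *Tlr7* KO 5 lay just above WT 2, and the *Ifnar1* KO mice all lay below it. For *Tlr7* KO 5 this came only from the scaling, as it had 50 counts against 60 in WT 2. The log2 fold change was -1.69 (SE 0.46, adjusted p = 0.0234, edgeR) in *Tlr7* KO, the smallest change there, and -2.91 (SE 0.75, adjusted p = 0.0418) in *Ifnar1* KO.

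*Sh2d1a* encodes SAP, the adaptor that couples receptors of the SLAM family to the kinase FYN and is needed for lasting contact between T and B cells. It had 1.13, 0.464 and 0.929 CPM in the WT mice. In *Tlr7* KO mice it had 0.344, 0.304, 0, 0.124 and 0.264 CPM, and in *Ifnar1* KO mice 0.034, 0.112 and 0.0419 CPM, from at most 3 counts in a library. All knockout values lay below WT. The log2 fold change was -2.03 (SE 0.64, adjusted p = 0.0349, edgeR) in *Tlr7* KO and -3.69 (SE 0.66, adjusted p = 0.0231) in *Ifnar1* KO.

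**Figure D3:**
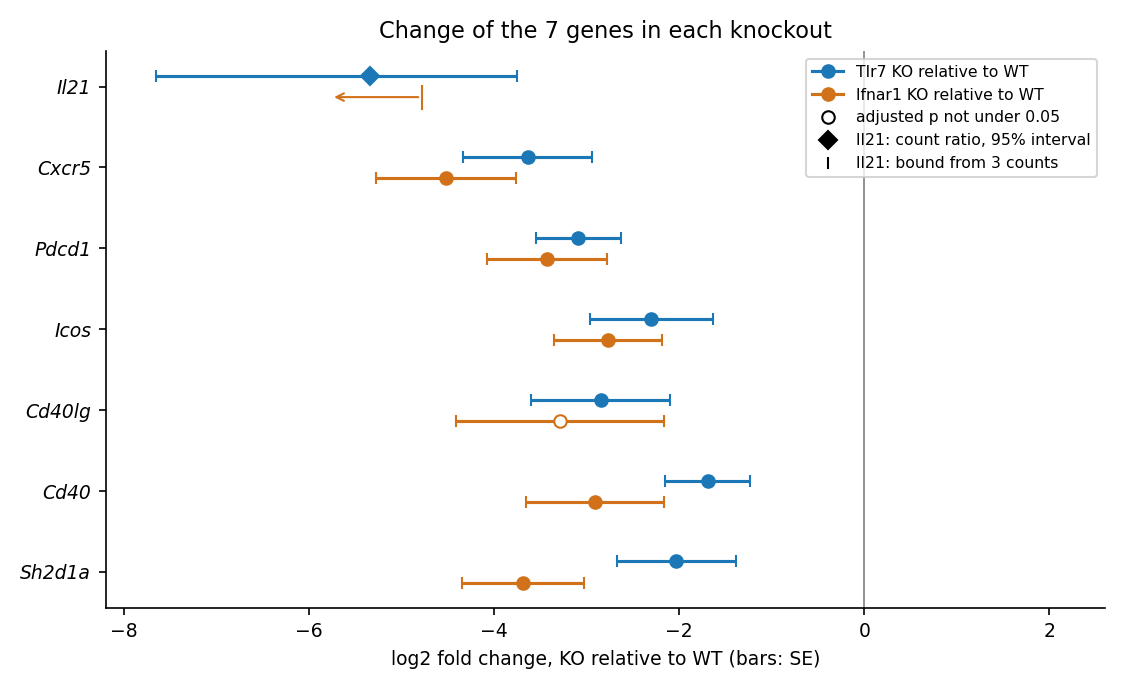
Log2 fold change (horizontal axis, KO relative to WT) of the 7 genes with SE bars in *Tlr7* KO and *Ifnar1* KO mice; an open circle marks an adjusted p that is not under 0.05, and *Il21* is drawn as the ratio of counts with its 95% interval in *Tlr7* KO and as a bound in *Ifnar1* KO. All estimates lie below 0, from -1.69 for *Cd40* in *Tlr7* KO to -4.52 for *Cxcr5* in *Ifnar1* KO among the fitted values.

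The calls rest on few mice. *Il21*, *Cxcr5* and *Pdcd1* kept an adjusted p under 0.05 in *Tlr7* KO whichever of the 8 mice was left out. Without WT 1 or WT 3 only these 3 of the 7 genes were called, and without WT 2 all 7 were, while the calls over all genes went from 4528 to 2629, 2503 and 6671. *Icos* lost its call in 6 of the 8 fits, *Sh2d1a* in 4, *Cd40* in 3 and *Cd40lg* in 2. In *Ifnar1* KO, leaving out WT 1, WT 3, *Ifnar1* KO 1 or *Ifnar1* KO 3 lost all member calls, with adjusted p between 0.0672 and 0.192 and every log2 fold change still negative, while 7 were called without WT 2 or *Ifnar1* KO 2. Those 4 fits called between 0 and 103 of the 13937 genes, against 2648 with all mice. Without *Tlr7* KO 4, which held muscle transcripts, 5 members were called in *Tlr7* KO, as without *Tlr7* KO 1 or *Tlr7* KO 5, which held few. Without *Tlr7* KO 2 the log2 fold change went to -4.53 for *Cxcr5*, -3.28 for *Icos* and -3.49 for *Cd40lg*. Without *Ifnar1* KO 2 it went to -5.58 for *Cxcr5*, -4.36 for *Pdcd1*, -3.80 for *Cd40* and -4.36 for *Sh2d1a*, and *Cd40lg* was then at 0 counts in both *Ifnar1* KO mice left.

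The knockouts were also compared directly. None of the 7 genes passed the test between *Ifnar1* KO and *Tlr7* KO mice at an adjusted or an unadjusted p under 0.05 (edgeR), DESeq2 also called 0, and 1.51% of all genes were called. The values of the 2 groups overlapped for every member, where 10.7% of all genes did not overlap. The log2 difference, *Tlr7* KO relative to *Ifnar1* KO, was 0.32 (SE 0.63) for *Pdcd1*, 0.41 (SE 1.31) for *Cd40lg*, 0.45 (SE 0.81) for *Icos*, 0.87 (SE 1.03) for *Cxcr5*, 1.20 (SE 0.71) for *Cd40* and 1.64 (SE 0.97) for *Sh2d1a*. With such errors a difference of severalfold in either direction could not be seen for *Cd40lg* or *Cxcr5*. *Il21* was at or under 3 counts in both groups and gives no fold.

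Lymphocyte markers moved with the 7 genes. The 8 B cell markers were all called lower in both knockouts, with median log2 fold changes of -3.25 in *Tlr7* KO and -4.28 in *Ifnar1* KO. Of the 10 T cell markers, 7 were called lower in each knockout, with medians of -1.80 and -2.84, and none of these markers was at 0 in all mice of a group. *Cd79a*, a signalling chain of the B cell receptor, had 67.5 ± 36.9 CPM in WT, 6.76 ± 5.75 in *Tlr7* KO and 4.22 ± 3.23 in *Ifnar1* KO mice, with log2 fold changes of -3.33 and -4.02, and *Cd79b* and *Cd22* had -3.22 and -3.34 in *Tlr7* KO and -4.38 and -4.33 in *Ifnar1* KO mice. *Cd4* had 14.7 ± 7.59, 3.83 ± 2.18 and 1.82 ± 1.86 CPM in the same groups, and overlapped between WT and *Tlr7* KO. The T cell genes *Cd4*, *Lck*, *Cd3g* and *Cd2* had log2 fold changes of -1.95, -2.07, -2.08 and -2.78 in *Tlr7* KO and -3.04, -2.99, -3.25 and -3.26 in *Ifnar1* KO mice, all called. Macrophage and dendritic cell markers summed to 177 to 326 CPM in WT, 156 to 182 in *Tlr7* KO and 51.9 to 145 in *Ifnar1* KO mice, and of these 8 markers, 4 were called lower in *Tlr7* KO and 3 in *Ifnar1* KO. Gland epithelial markers summed to 1063 to 1293 CPM in WT mice and to 1538 to 1751 CPM in knockout mice. Of these 9 markers, 4 were called higher and 2 lower in *Tlr7* KO, and 2 higher and 2 lower in *Ifnar1* KO. How much of the change of the 7 genes goes with the number of lymphocytes was not tested. Their level relative to T cell transcripts is given as a description instead.

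Each gene was expressed per 100 counts of *Cd3d*, *Cd3e* and *Cd3g*, the CD3 chains that all T cells carry. On this scale *Cd4* was at 89.3 ± 18.9 in WT, 86.8 ± 3.81 in *Tlr7* KO and 86.7 ± 30.8 in *Ifnar1* KO. *Il21* stood at 8.07, 5.78 and 3.64 per 100 Cd3 counts in WT 1, 2 and 3, at 0 to 1.15 in *Tlr7* KO mice and at 0 in *Ifnar1* KO mice. *Cxcr5* stood at 60.5 to 86.7 in WT, 9.2 to 30.7 in *Tlr7* KO and 8.33 to 26.5 in *Ifnar1* KO mice. For *Cxcr5* every knockout mouse lay below every WT mouse. For *Il21* this could not be seen mouse by mouse, since 3 counts would stand for 4.23 to 25 per 100 Cd3 counts in *Tlr7* KO 3 and 5 and *Ifnar1* KO 1 and 3, above the lowest WT value. Over all mice of a group, 3 *Il21* counts stood against 523 Cd3 counts in *Tlr7* KO (0.574 per 100), and the 0 counts in *Ifnar1* KO allow up to 1.66 per 100. *Cxcr5* is also transcribed by B cells, whose markers were lower in both knockouts.

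*Pdcd1* stood at 27.8 to 45.7 per 100 Cd3 counts in WT and at 11.5 to 24.8 in *Tlr7* KO mice, with no overlap, while the *Ifnar1* KO mice at 24.5 to 33.3 overlapped WT. *Cd40lg* was listed at 2.31 to 3.44 in WT, 0 to 1.98 in *Tlr7* KO and 0 to 3.33 in *Ifnar1* KO mice, and with 0 to 4 counts in each knockout library the groups could not be told apart at this depth. *Icos*, *Cd40* and *Sh2d1a* overlapped between WT and both knockouts on this scale. *Icos* had means of 12.8 ± 1.95 in WT, 7.89 ± 3.54 in *Tlr7* KO and 16 ± 4.83 in *Ifnar1* KO. *Cd40* had 31.6 ± 2.72, 40.3 ± 18.6 and 28.8 ± 11.2, and *Sh2d1a* had 5.24 ± 1.01, 4.54 ± 3.49 and 4.29 ± 3.51. In *Ifnar1* KO 3 the summed Cd3 level was 0.503 CPM, so that its ratios rest on very few counts.

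**Figure D4:**
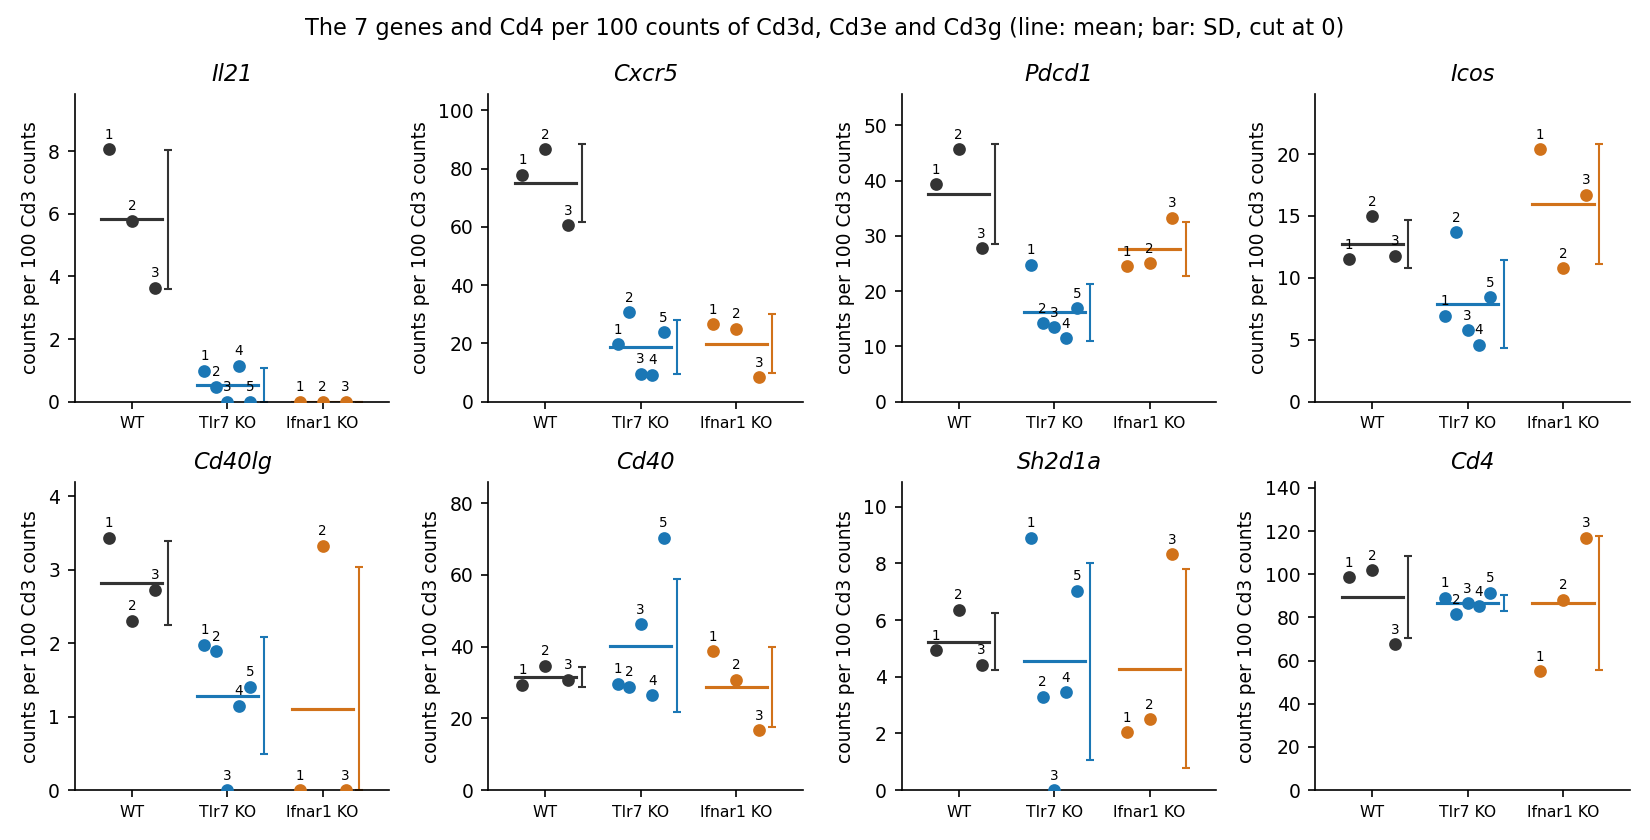
Counts of the 7 genes and of *Cd4* per 100 counts of *Cd3d*, *Cd3e* and *Cd3g* in each mouse, by genotype; points are mice with their numbers, lines are means and bars the SD. *Cxcr5* is separate from WT in both knockouts and *Pdcd1* in *Tlr7* KO, *Icos*, *Cd40*, *Sh2d1a* and *Cd4* overlap, and the knockout points of *Il21* and *Cd40lg* rest on 0 to 4 counts each.

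Most of the ligands, receptors and adaptors that work with the 7 genes were called lower as well. Of 15 such genes, 12 were called lower in *Tlr7* KO and 11 in *Ifnar1* KO, none was called higher (15.3% and 6.92% of all genes were), and the median log2 fold changes were -1.94 and -2.59. *Cxcl13*, the chemokine that binds CXCR5, had 33.9 ± 12.7 CPM in WT, 4.54 ± 2.25 in *Tlr7* KO and 2.19 ± 1.32 in *Ifnar1* KO, without overlap with WT. Its log2 fold change was -2.91 (SE 0.38, adjusted p = 0.00204, edgeR) in *Tlr7* KO and -3.97 (SE 0.50, adjusted p = 0.0195) in *Ifnar1* KO. The chains of the interleukin-21 receptor also fell. *Il21r* had log2 fold changes of -2.49 in *Tlr7* KO and -3.55 in *Ifnar1* KO mice, and *Il2rg*, the common gamma chain shared with other cytokine receptors, had -2.08 and -3.13.

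Of the ligands of PD-1, *Cd274* (PD-L1) was lower, with log2 fold changes of -1.54 and -2.59, and *Pdcd1lg2* (PD-L2), at 0.468 ± 0.296 CPM in WT, had -1.96 in *Tlr7* KO and -2.09 in *Ifnar1* KO and passed the test in neither (adjusted p = 0.0755 and 0.143, edgeR). *Icosl*, the ligand of ICOS, was lower, with -1.94 and -2.24. The TRAF adaptors that bind CD40 had fold changes nearer to 0. *Traf2* was called lower with -0.44 and -0.70, *Traf3* was called lower with -0.32 in *Tlr7* KO and had -0.45 in *Ifnar1* KO (adjusted p = 0.055), and *Traf6* had 0.14 and 0.13 (adjusted p = 0.211 and 0.369). These adaptors are transcribed by most cell types, and after scaling by library size alone the median of all genes moved to -0.54 in *Tlr7* KO and -0.31 in *Ifnar1* KO, so that changes of this size depend on the scaling.

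Of the SLAM family receptors that use SAP, 4 of 5 were lower in both knockouts. *Slamf1* had log2 fold changes of -3.12 in *Tlr7* KO and -4.16 in *Ifnar1* KO mice, and *Slamf6* had -2.69 and -3.40. *Ly9* had -2.02 and -3.84, and *Cd84*, which macrophages also carry, had -1.10 and -1.97. *Cd244a*, a receptor of natural killer cells, had -1.83 and -2.79 and passed the test in neither (adjusted p = 0.0514 and 0.0646, edgeR). The kinase gene *Fyn* was lower, with -1.33 and -1.65.

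**Figure D5:**
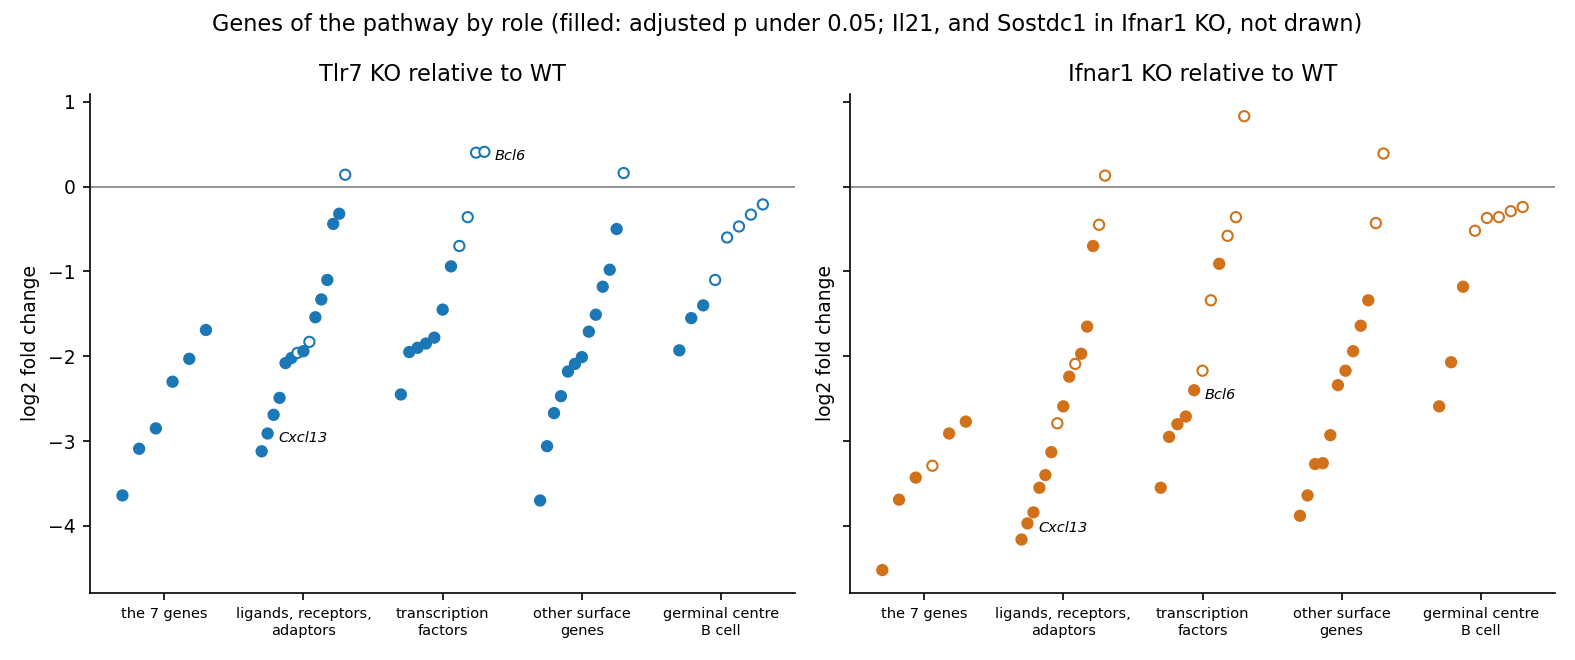
Log2 fold change (vertical axis, KO relative to WT) of each tested gene of the pathway by role in *Tlr7* KO (left) and *Ifnar1* KO (right) mice; filled circles have an adjusted p under 0.05 in edgeR's test, and *Il21* and, in *Ifnar1* KO, *Sostdc1* are not drawn because the knockout mice had 3 counts or fewer in all. *Cxcl13* lies at -2.91 and -3.97, and *Bcl6* lies at 0.41 (open circle) in *Tlr7* KO and at -2.40 in *Ifnar1* KO.

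Among 11 transcription factors that govern follicular helper T cells, including *Prdm1*, the antagonist of *Bcl6* (not called in either knockout), 7 were called lower in *Tlr7* KO and 6 in *Ifnar1* KO, and none was called higher (medians -1.45 and -2.17). *Bcl6* specifies follicular helper T cells and germinal centre B cells and is also transcribed in other tissues. It shared the direction of the 7 genes against WT in *Ifnar1* KO only, and did not follow them from mouse to mouse there. In *Ifnar1* KO mice *Bcl6* ran from 5.46 to 6.62 CPM, whereas *Cxcr5* ran from 0.0419 to 1.12 CPM. *Bcl6* had 31.9 ± 4.92 CPM in WT, 42.4 ± 9.92 in *Tlr7* KO and 6.11 ± 0.595 in *Ifnar1* KO mice. Its log2 fold change was 0.41 (SE 0.19, adjusted p = 0.128, edgeR) in *Tlr7* KO and -2.40 (SE 0.15, adjusted p = 0.00555) in *Ifnar1* KO. The direct comparison gave 2.80 (SE 0.21, adjusted p = 0.00217), higher in *Tlr7* KO than in *Ifnar1* KO in every mouse. *Maf*, which promotes *Il21* transcription in T cells, was lower, with -0.94 and -0.91, and so was *Tcf7*, a factor of early follicular helper and naive T cells, with -1.95 and -2.95. *Stat3*, which relays interleukin-6 and interleukin-21 signals in many cell types, had -0.36 in each knockout (adjusted p = 0.0955 and 0.242).

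Of 13 tested surface genes of follicular helper T cells other than the members, 12 were called lower in *Tlr7* KO and 11 in *Ifnar1* KO (medians -2.01 and -2.34). *Btla*, an inhibitory receptor shared with B cells, had 15.4 ± 5.16 CPM in WT, 1.86 ± 1.35 in *Tlr7* KO and 1.05 ± 0.84 in *Ifnar1* KO, with log2 fold changes of -3.06 and -3.88. *Nt5e* (CD73) was lower, with -1.18 and -1.34. *Il6st*, the signalling chain of the interleukin-6 receptor in most cells, was called lower with -0.50 in *Tlr7* KO and had -0.43 in *Ifnar1* KO (adjusted p = 0.0674), and *P2rx7*, an ATP-gated channel, had 0.16 and 0.39 (adjusted p = 0.368 and 0.0967, edgeR).

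Of 12 germinal centre B cell genes, 8 had enough counts to be tested and 3 were called lower in each knockout (medians -0.85 and -0.45). *Bach2*, a repressor of plasma cell formation, was lower, with log2 fold changes of -1.55 and -1.18. *Cd86*, a costimulatory ligand on B cells and dendritic cells, was called lower with -1.40 in *Tlr7* KO and had -0.52 in *Ifnar1* KO (adjusted p = 0.349). *Fas* had -0.21 and -0.24 and *Lmo2* -0.33 and -0.37, and neither passed the test. Some genes of germinal centre B cells were near the floor even in WT glands. *Rgs13*, a regulator of chemokine receptor signalling, had 18 counts over the 3 WT mice, 1 over the 5 *Tlr7* KO mice and 1 over the 3 *Ifnar1* KO mice, and *Mef2b*, a transcription factor, had 3, 5 and 0. These genes were below the filter on low counts and were not tested.

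Between the knockouts, 2 of the 47 tested genes of these lists were called, both higher in *Tlr7* KO (0.768% of all genes). One was *Bcl6*. The other was *S1pr2*, a receptor that confines B cells to germinal centres, at 0.518 CPM in *Ifnar1* KO and 1.42 CPM in *Tlr7* KO mice (log2 difference 1.45, SE 0.27, adjusted p = 0.0277, edgeR). Leaving out 1 mouse kept the call of *Bcl6* in 8 of 8 fits but lost that of *S1pr2* in 6 of 8, with an adjusted p of up to 0.096 (without *Ifnar1* KO 1). *S1pr2* was also called lower in *Ifnar1* KO than in WT (log2 fold change -2.07). *S1pr2* is named because the count is small, after its values were seen.

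For each member the genes with the most similar profile across the 11 mice were those with the smallest root mean square difference of mean-centred log2 CPM, among the genes that averaged 0.5 CPM or more. *Cd40* was closest to *Cxcr3*, a chemokine receptor of effector T cells, with a difference of 0.15 against a spread of 1.46 for *Cd40* itself. *Cd40lg* was closest to *Aim2* (0.19), *Elf4* (0.22) and *Syk* (0.25). *Icos* was closest to *Itgb7* (0.25), *Gdf11* (0.30) and *Ipcef1* (0.31). *Cxcr5* was closest to the B cell genes *Fcrl1* (0.28), *Bank1* (0.29) and *H2-Ob* (0.31). *Pdcd1* had *Gimap6*, *Ccr6* and *Rcsd1* at 0.31 each, *Sh2d1a* had *Cdkn2d* (0.32), *Map4k1* (0.38) and *Chst2* (0.40), and *Cd40* also had *Podnl1* (0.21) and *AW112010* (0.24). *Il21* had the least similar neighbours, with *Serpinb1a* at 0.48, *Trib2* at 0.53 and *Bcl11a* at 0.54. Among the members themselves the closest pair was *Cd40lg* and *Sh2d1a* (0.50) and the farthest apart were *Cxcr5* with *Cd40lg* and with *Sh2d1a* (1.20 each). The measure is not scaled to a gene's own spread, which was 2.22 for *Cxcr5*, 1.14 for *Cd40lg* and 1.23 for *Sh2d1a*. These differences describe the same 11 libraries, whose lymphocyte content differs, and carry no test.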

How the data were processed

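RNA from whole lacrimal glands of 11 mice was sequenced on the Illumina HiSeq platform, 1 library per mouse. The authors quantified transcripts with salmon, summed them to genes with tximport and deposited the estimated counts as whole numbers. Although called normalized, this table has the unequal library totals of unscaled counts and was used as such. The second deposited table holds counts of genome alignments (HISAT2 2.1.0, mm10, per the labels), whose counting tool is not given in the sources used here, and 1 of its columns, which has no sample, was not used. Estimated counts share reads among similar transcripts. The libraries had 20512315 to 28814250 counts.

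A gene was tested when its counts in WT added up to 30 or more, which left 13937 genes. This filter reads WT only, so genes low in WT and high in a knockout were not tested, and counts of lower and higher calls and their shares hold for genes present in WT. R 4.3.3, edgeR 4.0.16 (TMM, robust quasi-likelihood test, two-sided, one fit per comparison) and Benjamini-Hochberg adjustment over all genes tested were used, and a gene was called at an adjusted p under 0.05. On simulated counts, 4-fold changes were recovered for 96% of genes between WT and *Tlr7* KO and 94% between WT and *Ifnar1* KO, and 2-fold changes for 62% and 33%. The simulation gave all genes the same spread beyond counting error and drew the changed genes at random over all levels. These shares therefore need not hold for genes that are scarce or vary more between mice. *Cd40lg*, with a log2 fold change of -3.29 in *Ifnar1* KO, was not called. DESeq2 1.42.0 and other settings served as alternatives. GENCODE M21 matched 18725 of 19058 genes. The members and lists were chosen with earlier results of these data known, and marker lists were written from general knowledge. Named genes are the members, *Tlr7*, *Ifnar1*, all ligands, receptors and adaptors, the 4 most abundant of each other list, and the 3 genes most like each member, of which some are not reported here. Nothing in the sources says that mice came from separate litters, so p-values measure the spread between these mice.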

Additional observations from a re-analysis of the deposited data

Results flagged for a closer look

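In groups of 5 mice, a value was marked when its gap to the nearest other mouse exceeded 0.71 of the range of the group (Dixon's criterion). Of 21 gene levels and marker sums examined in the *Tlr7* KO mice, 5 were marked, and chance marks about 1 in 20 groups. *Tlr7* KO 2 was high for *Cxcr5* (2.83 CPM), for *Icos* (1.26 CPM), for the summed T cell markers (35.8 CPM) and for summed Cd3 (9.22 CPM). *Tlr7* KO 4 was high for skeletal muscle markers (248 CPM). Without *Tlr7* KO 2, all 7 genes were called lower in *Tlr7* KO, and without *Tlr7* KO 4, 5 were.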

How the results depend on the processing

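With RLE size factors, library size only, DESeq2, no filter on low counts, all 11 mice in a single fit and the second count table, 7 members were called in *Tlr7* KO and between 5 and 7 in *Ifnar1* KO. edgeR's filterByExpr did not test *Il21* and *Cd40lg* and called the other 5 in both. Under library size only, the median over all genes went from -0.04 to -0.54 (log2) in *Tlr7* KO and from -0.02 to -0.31 in *Ifnar1* KO, the share of calls that were lower went from 52.8% to 97.3% and from 63.6% to 95.1%, and 41 and 21 pathway genes were called. Leaving out 1 mouse gave 3 to 7 member calls in *Tlr7* KO and 0 to 7 in *Ifnar1* KO, 15 to 41 calls among the 47 pathway genes in *Tlr7* KO (34 with all mice, 15 without WT 1 or WT 3), 0 to 39 in *Ifnar1* KO (31, and at most 2 when the mouse left out was WT 1 or 3 or *Ifnar1* KO 1 or 3) and 1 to 4 between the knockouts (2). The cause was not tested. DESeq2 called 4 pathway genes between the knockouts, with 577 of 13608 genes called over all, against 211 of 13937 in edgeR. The edgeR fit without *Ifnar1* KO 2 also called 4, with 867 over all genes. Member differences between the knockouts, none of them called, changed sign to -0.01 (*Cxcr5*), -0.01 (*Pdcd1*), -0.53 (*Icos*) and -0.23 (*Cd40lg*) without *Tlr7* KO 2, to -0.09 (*Pdcd1*) and -0.08 (*Cd40lg*) without *Ifnar1* KO 3 and to -0.18 (*Cd40lg*) without *Ifnar1* KO 1. Their highest values, without *Ifnar1* KO 2, were 1.95, 1.27, 0.93 and 3.84 for *Cxcr5*, *Pdcd1*, *Icos* and *Cd40lg*.

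The sources used here do not say what mice with the same replicate number share. Their deviations from the group means correlated at -0.40 to 0.03 between WT and *Tlr7* KO, -0.44 to -0.16 between WT and *Ifnar1* KO and 0.06 to 0.34 between the knockouts, where each of the 3 *Ifnar1* KO mice correlated best with the *Tlr7* KO mouse of its number. With the replicate number as a block, *Tlr7* KO 4 and *Tlr7* KO 5 have no partner and add nothing to the differences between genotypes. With only 3 pairs left, the spread is poorly estimated, so a loss of calls does not show whether these mice are paired. With the replicate block, 0 members and 0 pathway genes were called in each knockout against WT, and 0 members and 8 pathway genes between the knockouts. The fold changes stayed about as large, for example -3.65 for *Cxcr5* and -2.91 for *Pdcd1* in *Tlr7* KO and -3.56 for *Pdcd1* in *Ifnar1* KO. That fit called 17 genes in *Tlr7* KO and 0 in *Ifnar1* KO of 13937, with 3582 and 3875 at an unadjusted p under 0.05. Between the knockouts the block called 541 of the 13937 genes, against 211 without it.

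The depth limits *Il21*, *Cd40lg* and *Sh2d1a*, whose knockout libraries hold 0 to 9 counts, and the untested germinal centre B cell genes.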
